A study of Mus musculus with 12 samples.

Results

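Genes of 7 subunits of the GABA-A receptor, the alpha subunit genes Gabra2, Gabra3, Gabra4, Gabra5 and Gabra6 and the gamma subunit genes Gabrg1 and Gabrg3, were followed in neonatal mouse nervous tissue with and without the NMDA receptor subunit NR3B. All 7 were found among the 18193 genes that the Affymetrix arrays read with a probe set of a single gene symbol. They have 18 such probe sets, and each gene was represented by the probe set with the highest mean signal over the 12 samples, with the 11 others used as a check. The first group, P5KO, holds 3 samples of NR3B knockout mice at postnatal day 5 (P5), and P5WT holds 3 of wild-type mice at that age. P0KO and P0WT hold 3 samples each of knockout and wild-type mice on the day of birth (P0). The labels give the source as brain, hindbrain and spinal cord, and in another field as brain only. Strain, the construction of the knockout allele, sex, pooling of animals and the share of each brain part are not stated there. Samples of a group are numbered, without a word on whether each is a different animal. The p-values below therefore describe variation among samples that could be partly technical.

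GABA-A receptors are chloride channels opened by GABA, built from 5 subunits that usually include alpha, beta and gamma types. The alpha subunit sets how the receptor responds to GABA and where in the cell it lies, and the pocket that benzodiazepines bind lies between an alpha and a gamma subunit. The composition of the receptor changes as the brain matures, and in immature neurons, which hold much chloride, GABA can depolarise the cell. Cerebellar granule cells, which multiply and settle in the first weeks after birth in mice, are the classical site of the alpha6 subunit.

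Signals are the deposited intensities on a linear scale, and differences are log2 differences of normalised signals from a model over all 12 samples (limma). Signals of different genes come from different probes, so brightness serves only to leave out dim genes and to choose which markers are named, and no member's level is set against another's. The median signal of an array was 605 to 734, lowest in P0KO sample 3. The signal ratio of the 3′ to the 5′ actin control, which rises as RNA is shortened, was 1.19 to 1.22 in P5KO and 1.19 to 1.26 in P5WT, against 1.24 to 1.58 in P0KO and 1.28 to 1.48 in P0WT. Within each genotype it was higher in every P0 sample than in every P5 sample, while P0KO and P5WT overlapped, and it was highest in P0KO sample 3. The same ratio for the Gapdh control overlapped between the ages. That ratio was 0.74 to 0.76 in P5KO and 0.73 to 0.79 in P5WT, against 0.66 to 0.84 in P0KO and 0.72 to 0.78 in P0WT. In a weighted fit P0WT samples 1 and 2 had low array weights of 0.360 and 0.189, against 2.44 for the third sample of their group. P0KO sample 1 also had a low weight of 0.375. Grin3b, the gene of NR3B, read 48.5, 39.7 and 45.4 in P5KO, against 273, 168 and 155 in P5WT. At P0 it read 31.4, 38.8 and 96.9 in P0KO, against 353, 198 and 304 in P0WT, so the groups did not overlap at either age although the probe set is dim (difference -1.93 averaged over the ages, limma adjusted p = 0.237). Of the Hox genes that mark hindbrain and spinal cord, 10 of 11 entries were read and tested, among them Hoxa5, Hoxb3 and Hoxb5. Of the forebrain markers, 5 of 10 entries were tested, among them Bcl11b, Neurod6 and Neurod2, while Emx1, Tbr1 and Ppp1r1b were below the filter on dim genes.

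The 300 bases around the annotated start are shown for 5 members. On their representing probe sets these passed between P5 and P0 in the average over genotypes. They form both directions of that change, Gabra6 and Gabra4 higher and Gabra3, Gabra5 and Gabrg1 lower at P5. The bases are RefSeq sequence of mouse build GRCm38.p6, 250 bases before to 50 after the start, on the minus strand in each case. Capitals mark the letters TTGGC, searched on both strands (GCCAA where the match is on the other strand), which are the core of the binding motif of nuclear factor I (NFI), a family of transcription factors known to act on the Gabra6 gene in mouse cerebellar granule neurons. The promoter of Gabra6 lies at chr11:42321023-42321322, of Gabra4 at chr5:71658259-71658558, of Gabra3 at chrX:72656870-72657169, of Gabra5 at chr7:57510010-57510309 and of Gabrg1 at chr5:70842568-70842867.
Gabra6: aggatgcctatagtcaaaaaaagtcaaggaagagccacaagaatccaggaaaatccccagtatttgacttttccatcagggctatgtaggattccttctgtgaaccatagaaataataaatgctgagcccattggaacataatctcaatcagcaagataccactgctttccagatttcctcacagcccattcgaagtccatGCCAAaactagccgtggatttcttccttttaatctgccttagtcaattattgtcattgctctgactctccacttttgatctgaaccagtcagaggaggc
Gabra4: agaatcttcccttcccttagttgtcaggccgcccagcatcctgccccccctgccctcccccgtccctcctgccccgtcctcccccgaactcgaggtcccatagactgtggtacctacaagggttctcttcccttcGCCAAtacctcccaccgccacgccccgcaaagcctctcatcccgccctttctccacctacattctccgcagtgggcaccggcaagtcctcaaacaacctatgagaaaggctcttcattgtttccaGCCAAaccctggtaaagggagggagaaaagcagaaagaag
Gabra3: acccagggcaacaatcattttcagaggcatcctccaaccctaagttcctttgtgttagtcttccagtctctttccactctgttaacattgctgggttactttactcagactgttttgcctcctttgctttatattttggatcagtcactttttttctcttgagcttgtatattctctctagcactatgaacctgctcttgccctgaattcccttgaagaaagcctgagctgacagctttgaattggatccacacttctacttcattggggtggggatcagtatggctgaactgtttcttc
Gabra5: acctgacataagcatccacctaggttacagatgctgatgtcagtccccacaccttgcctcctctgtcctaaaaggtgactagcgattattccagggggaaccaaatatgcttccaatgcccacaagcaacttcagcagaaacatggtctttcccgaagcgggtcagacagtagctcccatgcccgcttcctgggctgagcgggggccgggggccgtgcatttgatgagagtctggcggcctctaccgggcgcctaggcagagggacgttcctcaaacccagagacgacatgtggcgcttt
Gabrg1: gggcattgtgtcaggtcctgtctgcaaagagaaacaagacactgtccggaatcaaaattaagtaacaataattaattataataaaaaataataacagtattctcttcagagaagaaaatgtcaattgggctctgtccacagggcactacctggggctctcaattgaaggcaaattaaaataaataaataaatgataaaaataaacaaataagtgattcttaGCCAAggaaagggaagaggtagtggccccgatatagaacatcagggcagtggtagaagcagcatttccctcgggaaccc

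The motif occurs 1 time for Gabra6, beginning 49 bases before the start, 2 times for Gabra4 and 1 time for Gabrg1, and the Gabra3 and Gabra5 windows do not hold these letters. It occurs in 46.7% of 32851 RefSeq promoters of the same length, so its presence is common. Gabra5 and Gabra4 have 56.7% and 58.7% G or C with 13 and 12 CpG, against 43.0% with 0 CpG for Gabra3, 42.0% with 2 for Gabra6 and 38.3% with 3 for Gabrg1. The median over all promoters was 52.7% with 7 CpG. The Gabra3 window is the only one of the 5 with the letters TATAAA on either strand, which 13.6% of promoters hold. Gabra3 has a second annotated start nearby, whose window is not shown. In the RefSeq table Gabrg1 and Gabra2 are neighbours on chromosome 5, where Gabra4 lies next to Gabrb1, Gabrg3 and Gabra5 are neighbours on chromosome 7, and Gabra3 is on the X chromosome.

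Between birth and day 5 the alpha subunit genes moved in opposite directions. Gabra3 and Gabra5, together with the gamma gene Gabrg1, were lower at P5 in the average over both genotypes, by 1.28- to 1.42-fold. Gabra4 was 1.18-fold higher and the dim Gabra6 3.10-fold higher. Of the 6 members tested, 4 passed an adjusted p of 0.05 in this average, 1 higher and 3 lower, where 29.6% of the 12600 genes tested passed and 15.0% passed as lower. The median difference of the 6 was -0.34, against 0.00 over all genes. This average over genotypes was added after the data were seen.

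**Figure D1:**
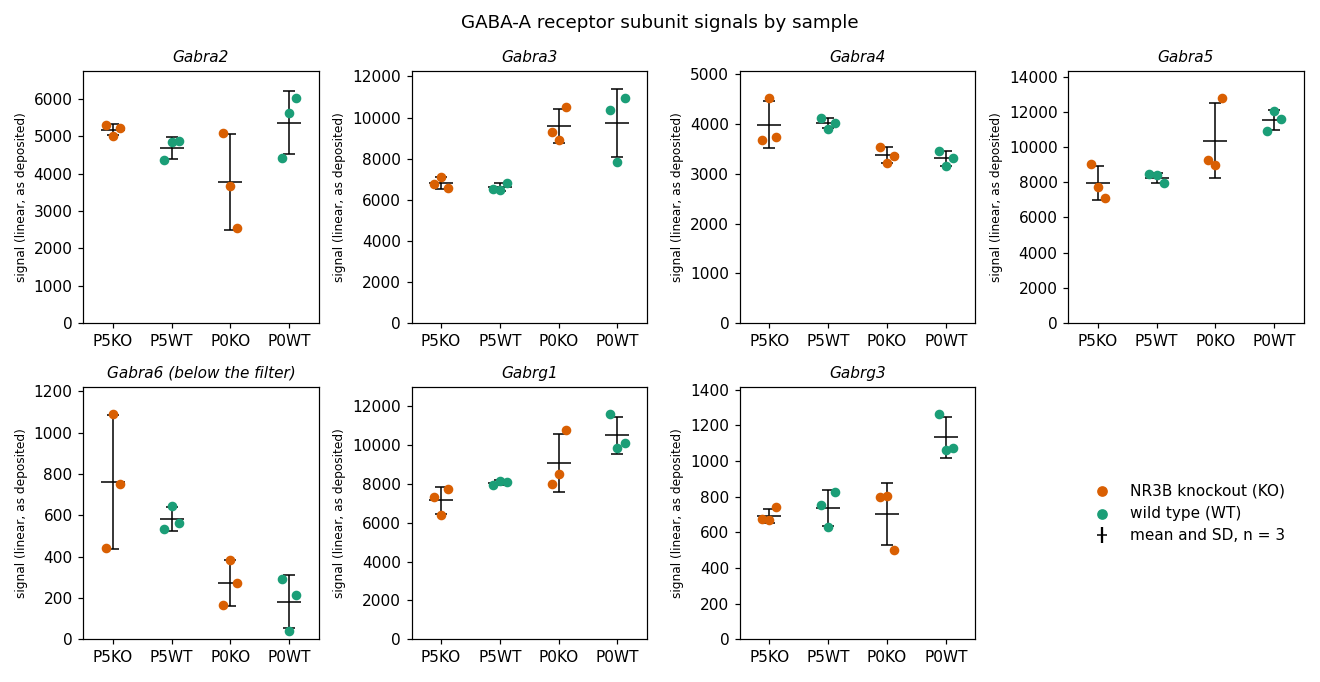
Deposited signal (linear) of each member in the 4 groups, with 1 point per sample and bars for the mean and SD of 3 samples. Gabra3 is lower in every P5 sample than in every P0 sample, Gabra6 is higher in every P5 sample, and the 3 P0WT samples of Gabrg3 lie above all others.

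Gabra3 encodes the alpha3 subunit, which is abundant before and around birth and later in monoamine neurons and the reticular thalamus. Its signal was 6762, 7125 and 6575 in P5KO and 6544, 6459 and 6837 in P5WT, against 9303, 8899 and 10489 in P0KO and 10386, 7855 and 10959 in P0WT. Every P5 sample was below every P0 sample. The difference, P5 minus P0, was -0.47 ± 0.13 in knockout (SE, n = 3 per group; limma adjusted p = 0.0310) and -0.53 ± 0.13 in wild type (adjusted p = 0.0120), and -0.50 ± 0.09 in the average (adjusted p = 0.00111). A second probe set for Gabra3 fell by 0.79 ± 0.15 in the average (limma adjusted p = 0.00393 over all probe sets). The call in the average held under all 19 alternative settings. Among these, leaving out P0WT samples 1 and 2, which leaves 1 P0WT sample, gave a difference of -0.60. Gabra3 lies on the X chromosome and the groups differed in sex: Xist, which marks female tissue, was high in 1 of 3 P5KO and 0 of 3 P5WT samples, against 2 of 3 P0KO and 2 of 3 P0WT samples. Among samples with low Xist alone, Gabra3 read 6575 and 6762 in P5KO and 6459 to 6837 in P5WT, against 10489 in P0KO and 10959 in P0WT. Each of these P0 values is a single sample, and both samples had the highest actin ratios, 1.58 and 1.48. Among samples with high Xist, it read 7125 in P5KO, against 9303 and 8899 in P0KO and 10386 and 7855 in P0WT. The part of sex in the age difference was not tested.

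Gabra5, the alpha5 subunit of extrasynaptic receptors that carry tonic inhibition, has 1 probe set. It read 9038, 7734 and 7096 in P5KO and 8450, 8387 and 7930 in P5WT, against 9282, 8992 and 12791 in P0KO and 10931, 12060 and 11584 in P0WT. The wild-type groups did not overlap, whereas P5KO sample 1 lay above P0KO sample 2. In wild type Gabra5 fell by 0.47 ± 0.14 (SE, n = 3 per group; limma adjusted p = 0.0297). The knockout difference of -0.35 ± 0.14 did not pass (adjusted p = 0.122), and the average fell by 0.41 ± 0.10 (adjusted p = 0.00632). With the actin ratio as a covariate, the average was -0.28 with an adjusted p of 0.0959.

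Gabrg1 encodes the gamma1 subunit, which gives receptors weak benzodiazepine sensitivity and is found also in glial cells. Its signal was 7296, 6382 and 7747 in P5KO and 7913, 8157 and 8061 in P5WT, against 7973, 8482 and 10744 in P0KO and 11573, 9811 and 10093 in P0WT. Within each genotype the P5 samples lay below the P0 samples. Neither genotype passed alone (-0.33 ± 0.13 in knockout with a limma adjusted p of 0.128, -0.38 ± 0.13 in wild type with 0.0563), and the average fell by 0.35 ± 0.09 (adjusted p = 0.0115). The actin covariate changed the average to -0.26 with an adjusted p of 0.125. A second probe set above the filter differed by -0.22 ± 0.14 in the average (limma adjusted p = 0.365) and correlated with the first at only r = 0.13 over the 12 samples.

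Gabra6, the alpha6 subunit of mature cerebellar granule cells, has a dim probe set. It lay at the 37.3rd percentile of probe sets, below the filter at the 40th, so it is not among the 12600 genes, and no detection calls were used here. It read 443, 1091 and 754 in P5KO and 535, 646 and 561 in P5WT, against 165, 386 and 272 in P0KO and 293, 42.9 and 213 in P0WT. Every P5 sample was above every P0 sample. In the fit over all 45037 probe sets the average was higher by 1.63 ± 0.38 (limma adjusted p = 0.0112, where 11.7% of probe sets passed). The exact permutation test within genotypes gave p = 0.005, the smallest it can give. Alone, neither knockout (1.41 ± 0.53, limma adjusted p = 0.195) nor wild type (1.85 ± 0.53, adjusted p = 0.0560, where 5.81% of probe sets passed) passed. A second, still dimmer probe set differed by 1.43 ± 0.60 in the average (limma adjusted p = 0.145). Without P0WT samples 1 and 2, which leaves 1 P0WT sample, the first probe set differed by 1.38.

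Most granule cell markers moved the same way as Gabra6. Of 10 tested, 9 passed as higher at P5 in the average (limma adjusted p under 0.05), among them Zic1 by 0.86 and Cbln1 by 0.41, and 1, the potassium channel gene Kcnd2, passed as lower with -0.41 (adjusted p = 0.00397). Grin2c was below the filter. Sums here and below take the deposited signal of all markers read, also those below the filter, so bright markers weigh most. For granule cells the sum was 120700 to 131887 in P5KO and 118952 to 124588 in P5WT, against 73265 to 79228 in P0KO and 62945 to 80127 in P0WT. Markers of other cell types passed too by the same test. In this average 29.6% of the 12600 genes tested passed, 15.0% as lower. All 7 oligodendrocyte markers tested, Mbp, Cnp and Olig1 among them, were higher at P5. Of 9 astrocyte and Bergmann glia markers 7 were higher, Gja1 among them by 0.26, and the 2 that did not pass were Fabp7 and Aldoc (limma adjusted p = 0.972 and 0.676). Of 8 general neuron markers, 6 were lower, including Stmn2, Nefl and Map2, with sums of 346371 to 390449 in P5KO and 372890 to 389832 in P5WT, against 447060 to 493754 in P0KO and 413076 to 530028 in P0WT. Of the 10 Hox genes tested, 8 were lower, with sums of 20870.1 to 25749 in P5KO and 25368 to 26259.6 in P5WT, against 39448 to 57202 in P0KO and 35566 to 61809 in P0WT. Higher at P5 were also 6 of 7 microglial, 4 of 9 meningeal and 2 of 3 red blood cell markers tested, and 1 of 5 forebrain and 1 of 3 inhibitory neuron markers tested were lower. Their part in the members' age differences was not tested. In bulk tissue, fewer cells of a type and less RNA per cell cannot be told apart.

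Gabra4, the alpha4 subunit of extrasynaptic receptors in thalamus and dentate gyrus, read 3684, 4527 and 3743 in P5KO and 4122, 3908 and 4027 in P5WT, against 3534, 3219 and 3367 in P0KO and 3455, 3154 and 3326 in P0WT. Every P5 sample was above every P0 sample, by a small margin in knockout. The average rose by 0.24 ± 0.08 (SE; limma adjusted p = 0.0398). Knockout alone gave 0.21 ± 0.12 (adjusted p = 0.304) and wild type alone 0.28 ± 0.12 (adjusted p = 0.0988). The average passed in 6 of 19 alternative settings, with differences of 0.20 to 0.28. It was lost without P0WT sample 3, P5KO sample 2 or 3, any P0KO or any P5WT sample. The call was also lost with no filter, with a replicate block and with the actin ratio as a covariate. Without P0WT samples 1 and 2, which leaves 1 P0WT sample, the average was 0.25. A second probe set differed by 0.27 ± 0.17 (limma adjusted p = 0.359).

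On their representing probe sets, Gabra2 and Gabrg3 gave no age difference in the average that passed, while 1 other probe set of Gabrg3 did. Gabra2, the alpha2 subunit of synapses on the axon initial segment, read 5292, 5006 and 5208 in P5KO and 4350, 4853 and 4869 in P5WT, against 5090, 3666 and 2543 in P0KO and 4407, 5626 and 6024 in P0WT. Its spread was widest in P0KO, with an SD of 1277 around a mean of 3766, against an SD of 147 around 5169 in P5KO. The average difference was 0.15 ± 0.14 (limma adjusted p = 0.418), with 0.48 ± 0.20 in knockout (adjusted p = 0.142) and -0.17 ± 0.20 in wild type (adjusted p = 0.561). Both other Gabra2 probe sets above the filter had averages close to this, 0.19 ± 0.11 and 0.18 ± 0.12, and neither passed (limma adjusted p = 0.298 and 0.394).

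Gabrg3 encodes the gamma3 subunit, a minor gamma type. Its signal was 674, 668 and 739.8 in P5KO and 755, 630.4 and 829 in P5WT, against 798, 805 and 501 in P0KO and 1263, 1060.1 and 1074 in P0WT. The 3 P0WT samples were above all 9 others. In wild type Gabrg3 fell by 0.62 ± 0.19 (SE, n = 3 per group; limma adjusted p = 0.0384). This call was lost without P0WT sample 1 or 3, any P5WT or any P5KO sample. Without P0WT samples 1 and 2, which leaves 1 P0WT sample, the difference was -0.53. The knockout difference was -0.01 ± 0.19 (adjusted p = 0.977) and the average -0.32 ± 0.14 (adjusted p = 0.0946). This average passed in 2 of 19 alternative settings, with the actin ratio as a covariate and without P0KO sample 3. The probe set of Gabrg3 at the 42.1st percentile of signal, above the filter, behaved otherwise. It read 148, 287 and 30.3 in P5KO and 762, 939 and 314 in P5WT, against 803, 671 and 334 in P0KO and 634, 943 and 1451 in P0WT. The ages did not overlap in knockout and overlapped in wild type. Its average fell by 1.39 ± 0.42 (limma adjusted p = 0.0470 over all probe sets), with -2.14 ± 0.60 in knockout (adjusted p = 0.0683) and -0.63 ± 0.60 in wild type (adjusted p = 0.600). The probe set at the 49.1st percentile differed by -0.06 ± 0.21 in the average and the one below the filter by -0.46 ± 0.38, and neither passed (limma adjusted p = 0.893 and 0.500). In the average, 1 of the 4 Gabrg3 probe sets passed.

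Within knockout, 1 of the 6 members tested (Gabra3) passed, and it was lower, where 10.5% of genes passed and 4.95% as lower. Within wild type, 3 passed (Gabra3, Gabra5 and Gabrg3), all lower, where 19.3% of genes passed and 8.52% as lower. The median member difference was -0.17 in knockout, against -0.03 over all genes, and -0.42 in wild type, against 0.03 over all genes. The samples of the ages did not overlap for 3 of 6 members in knockout, where this held for 33.3% of genes, and for 5 of 6 in wild type, where it held for 35.3%. In both genotypes at once it held for 3 members (Gabra3, Gabra4 and Gabrg1), where it held for 18.8% of genes. These within-genotype calls were lost when certain samples were left out. Without P0WT sample 3, and likewise without P5WT sample 2, 0 of the 6 passed in wild type. The Gabra3 call in wild type was lost without either of these, with differences of -0.67 to -0.44 and an adjusted p of at most 0.0512 (limma). In knockout it was lost without P0KO sample 1 or 3, P5WT sample 1 or 3 or any P5KO sample, with differences of -0.52 to -0.42 and an adjusted p of at most 0.108. The Gabra5 call was lost without P0WT sample 3 or any P5WT sample (-0.51 to -0.44, adjusted p at most 0.0985), and the Gabrg3 call without P0WT sample 1 or 3, any P5WT or any P5KO sample (-0.72 to -0.51, adjusted p at most 0.139). With only the groups compared, the wild-type calls of Gabra3 and Gabrg3 were lost. With the actin covariate, those of Gabra3 in knockout and Gabra5 in wild type were lost. The Gabrg3 call was also lost with the deposited scaling and with no filter. In the average over genotypes, the calls of Gabra3, Gabra5, Gabra6 and Gabrg1 held with each of the 12 samples left out.

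**Figure D2:**
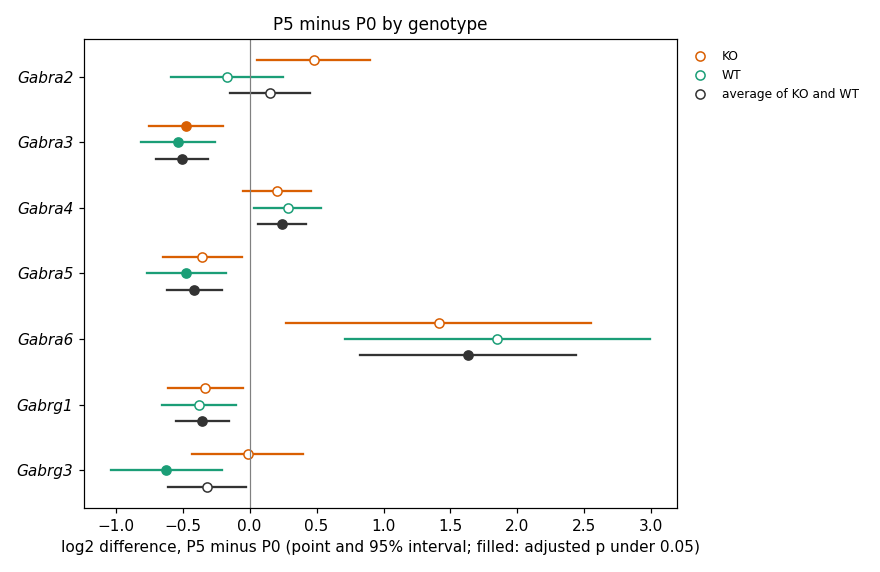
Log2 difference, P5 minus P0, of each member in knockout, in wild type and averaged, with 95% intervals and filled points for an adjusted p under 0.05. Gabra3, Gabra5 and Gabrg1 lie left of 0 in every row, Gabra4 and Gabra6 lie right of it, and Gabra2 lies on opposite sides in knockout and wild type.

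No member passed the test between knockout and wild type. In knockout minus wild type 0 of the 6 tested passed at P5, where 0.00794% of genes passed (limma). At P0 and in the average over both ages 0 of 6 passed as well, where 0.0238% of genes passed in each comparison. At an unadjusted p under 0.05, 0 of 6 members and 232 genes were counted at P5, 2 members and 2034 genes at P0, and 2 members and 1090 genes in the average. A fit with array weights passed 1 of the 6 members at P0, Gabra2, where 24.5% of the 12600 genes passed. The median member difference was -0.02 at P5, against 0.00 over all genes, and -0.20 at P0, against 0.07 over all genes.

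Of the alpha genes, Gabra3, Gabra4 and Gabra5 had close values in both genotypes on their representing probe sets. Their differences at P5 were 0.04 (95% interval -0.23 to 0.32), -0.01 (-0.26 to 0.24) and -0.06 (-0.35 to 0.23), in that order. At P0 they were -0.02 (-0.29 to 0.26), 0.07 (-0.18 to 0.32) and -0.18 (-0.47 to 0.12). These intervals do not hold a change of 0.5 in either direction on the log2 scale. The second probe sets of Gabra3 and Gabra4, also above the filter, were both lower in knockout at P0, by -0.45 (-0.92 to 0.02) and -0.45 (-0.96 to 0.06), and these intervals hold a change of -0.5. At P5 they gave -0.08 (-0.55 to 0.38) and -0.02 (-0.53 to 0.49). The interval for Gabra6 was much wider, 0.34 (-0.80 to 1.48) at P5 and 0.78 (-0.36 to 1.92) at P0, so a 2-fold rise of this dim gene lies within both.

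On its representing probe set Gabra2 had a difference below 0 at P0 and above 0 at P5, and neither passed. At P5 the 3 knockout samples, 5006 to 5292, lay above the 3 wild-type samples, 4350 to 4869, with a difference of 0.16 (95% interval -0.26 to 0.58; limma adjusted p = 0.9998). At P0 the difference was -0.49 ± 0.20 (SE; unadjusted p = 0.0251, limma adjusted p = 0.290), and the groups overlapped because P0KO sample 1 read 5090. The low end was P0KO sample 3, the array with the highest actin ratio. Without it the difference was -0.26, and without P0WT samples 1 and 2, which leaves 1 P0WT sample, it was -0.66. Both other probe sets of Gabra2 above the filter gave smaller P0 differences, -0.26 ± 0.15 and -0.15 ± 0.17. At P5 they gave -0.045 ± 0.15 and 0.02 ± 0.17 with overlapping groups. The pair below the filter was lower in knockout at P5, by -1.30 ± 1.02 and -0.80 ± 0.44, the second without overlap, and none of these passed. Of the 5 Gabra2 probe sets, 3 had a value below 0 at P5.

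Gabrg3 gave the largest P0 difference among the 6 members tested. Its P0KO samples lay at 501, 798 and 805, all below the P0WT samples at 1060.1, 1074 and 1263. The difference was -0.64 ± 0.19 (95% interval -1.06 to -0.23; unadjusted p = 0.00507, limma adjusted p = 0.285), and the exact permutation test gave p = 0.1, the smallest that 3 against 3 allows. The adjusted p ranged from 0.0525 to 0.652 over 20 alternative settings, and the difference from -0.74 to -0.50. Its 3 other probe sets differed by -0.67 ± 0.53, -0.70 ± 0.60 and -0.46 ± 0.29 at P0, and none passed. At P5 the genotypes overlapped, with a difference of -0.03 (-0.45 to 0.38). The other probe sets did not move together at P5. The one at the 42.1st percentile of signal differed by -2.21 ± 0.60 (unadjusted p = 0.00236, limma adjusted p = 0.9999), and the one at the 49.1st percentile by 0.14 ± 0.29.

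Gabrg1 was lower in knockout by a similar size at both ages. The difference was -0.18 (-0.46 to 0.10) at P5, where the groups did not overlap, and -0.23 (-0.51 to 0.05) at P0, where they did. The average was -0.20 ± 0.09 (unadjusted p = 0.0458, limma adjusted p = 0.574), and the second probe set gave 0.03, in the other direction. Non-overlap was found for 2 of 6 members at P5 (Gabra2 higher, Gabrg1 lower), where 12.9% of genes did not overlap, and for 1 of 6 at P0 (Gabrg3 lower), where 10.2% did not.

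**Figure D3:**
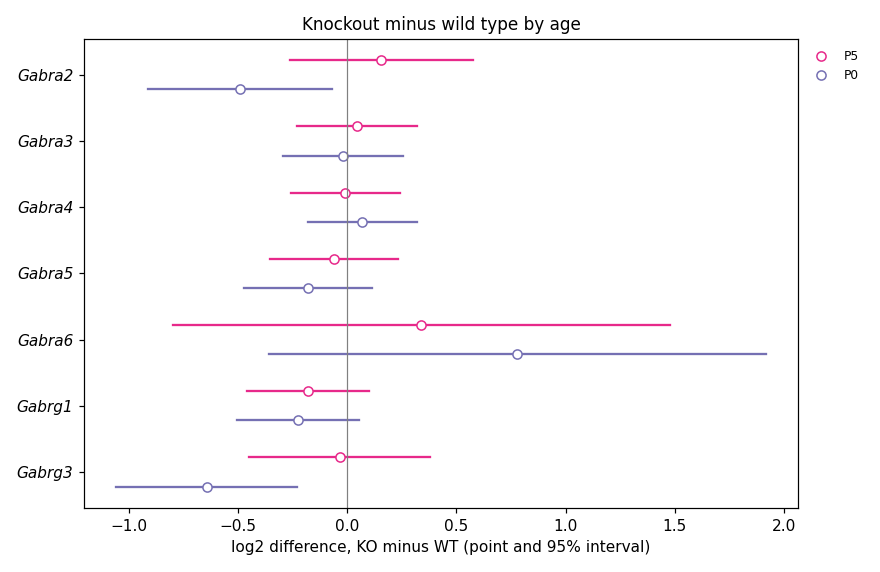
Log2 difference, knockout minus wild type, of each member at P5 and at P0, with 95% intervals and open points for comparisons that did not pass. The P0 intervals of Gabrg3 and Gabra2 lie below 0 without adjustment, and all P5 intervals cross 0.

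Of the 71 tested cell type and region markers, 0 passed between the genotypes at either age (limma). At an unadjusted p under 0.05 there were 1 at P5 and 20 at P0, against 232 and 2034 of all 12600 genes. Some summed signals did not overlap, where 12.9% of single genes did not at P5 and 10.2% at P0. The sum of 9 meningeal and fibroblast markers, including Ptgds, Col3a1 and Igf2, was 129996 to 159036 in P0KO against 67606 to 93838 in P0WT, with differences above 0 for 8 of 9. Those of red blood cells, including Alas2, Hbb-b2 and Slc4a1, summed to 2932 to 4503 in P0KO against 1181 to 2090.5 in P0WT, with differences above 0 for 3 of 3 tested and Hba-a1 below the filter. Microglial sums, including Csf1r, C1qb and C1qa, overlapped at P0, 23606 to 29655 in P0KO against 16033 to 23914 in P0WT, with differences above 0 for 6 of 7 tested and Trem2 below the filter. At P5 the microglial sums did not overlap, 34668 to 35964 in P5KO against 28566 to 29718 in P5WT, with differences above 0 for 7 of 7. The meningeal sums overlapped at P5, 153157 to 166859 in P5KO against 145140 to 169137 in P5WT, and so did those of red blood cells, 5325 to 8227 in P5KO against 4086 to 6073 in P5WT. Their part in the genotype differences of Gabrg3 and Gabra2 was not tested.

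**Figure D4:**
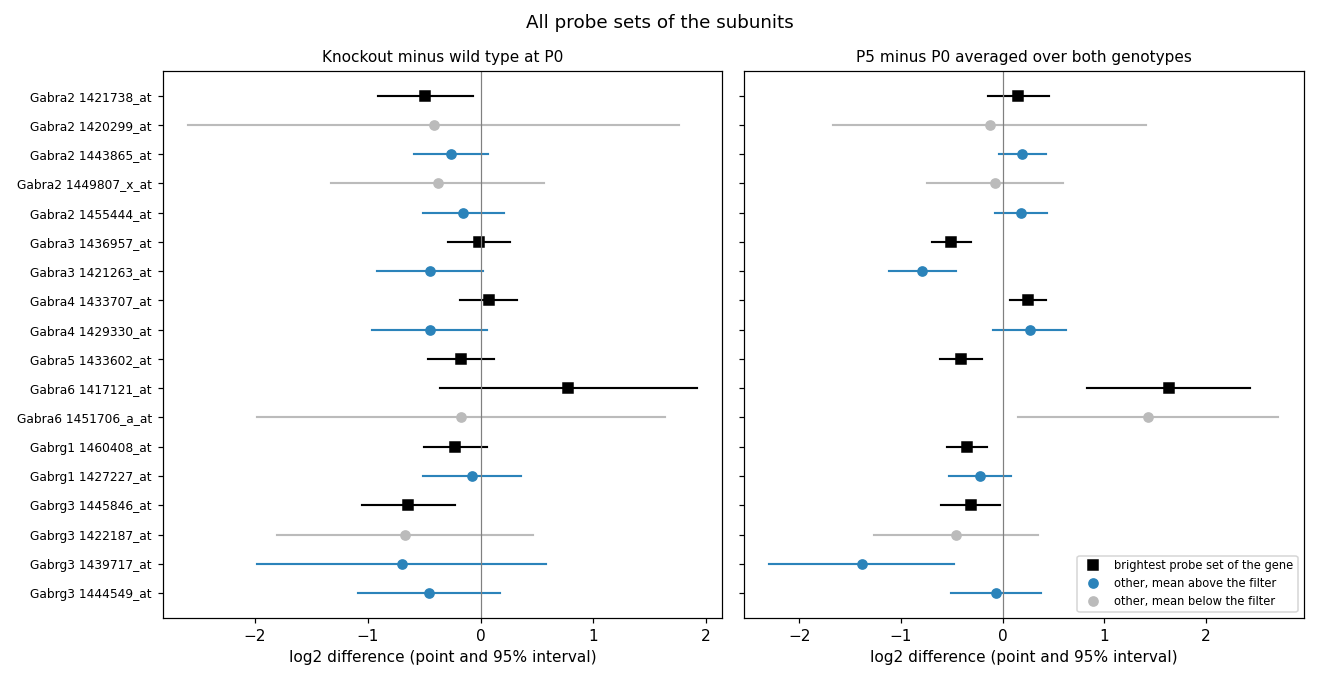
Log2 differences of all 18 probe sets of the members, knockout minus wild type at P0 on the left and P5 minus P0 averaged over genotypes on the right, with 95% intervals. Both Gabra3 probe sets and both Gabra6 probe sets lie on the same side of 0 on the right, while the points of the 4 Gabrg3 probe sets are all below 0 on the left.

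The test of the difference between the differences passed for 0 of 6 members and for 0 of 12600 genes (0% of genes; limma), with 628 genes and 2 members at an unadjusted p under 0.05. Those members were Gabra2, at 0.65 ± 0.28 (95% interval 0.05 to 1.24; unadjusted p = 0.0346), and Gabrg3, at 0.61 ± 0.27 (0.02 to 1.19; unadjusted p = 0.0430), both with a limma adjusted p of 0.742. For Gabra2 the 4 group means were 5169 in P5KO and 4690.3 in P5WT, against 3766 in P0KO and 5352 in P0WT. For Gabrg3 they were 694 in P5KO and 738 in P5WT, against 702 in P0KO and 1132 in P0WT. The group farthest from the others was P0KO, the lowest, for Gabra2 and P0WT, the highest, for Gabrg3. With array weights the Gabra2 value passed (limma adjusted p = 0.0220), where 12.1% of genes passed. The other tested members lay between -0.08 and 0.12.

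Ordered by normalised log2 level, Gabra3, Gabra5 and Gabrg1 had both P0 groups above both P5 groups. For Gabra3 the gap between P0KO and P5KO, its nearest groups across age, was 0.47 with a pooled SD of 0.08 for these groups. The SD within P0WT was larger, 0.25, and the genotypes within an age overlapped. For Gabra5 the gap between P0KO and P5WT, its nearest groups across age, was 0.29 with a pooled SD of 0.18. For Gabrg1 the corresponding gap was 0.15 with a pooled SD of 0.14, and these 2 groups overlapped. Gabra4 and Gabra6 had the reverse order, with gaps across age of 0.21 and 1.07 and pooled SDs of 0.13 and 0.43. For Gabra2 the order was P0WT, P5KO, P5WT and P0KO, with gaps of 0.01, 0.16 and 0.32. Of these neighbours P5KO and P5WT did not overlap, and the others did. In Gabrg3, P0WT stood 0.62 above the next group, and the other groups overlapped with gaps of 0.02 and 0.01.

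Other genes of GABA and glycine transmission were read in the same fit. Of 7 tested genes that make, package and clear GABA, 1 was higher and 1 lower at P5 in the average, where 29.6% of genes passed. In wild type 2 were higher and 1 lower, where 19.3% of genes passed. Gad1, which makes GABA, fell by 0.41 ± 0.10 in the average (limma adjusted p = 0.00775), with 30798 ± 1416 in P5KO and 28214 ± 372 in P5WT, against 38735 ± 3812 in P0KO and 39429 ± 3001 in P0WT (SD, n = 3 each). Slc6a11, a GABA transporter of astrocytes, rose by 0.45 ± 0.12 (adjusted p = 0.0131). Slc6a13, a GABA transporter that is also a meningeal marker here, rose by 0.80 ± 0.23 in wild type (adjusted p = 0.0288), against -0.35 ± 0.23 in knockout. Of the inhibitory neuron markers, Gad1, Slc32a1 and Gad2 were tested and Dlx1, Dlx2, Dlx5 and Lhx6 were below the filter.

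The chloride transporters, which set the direction of GABA currents, did not move together. Slc12a2, which brings chloride into the cell, rose by 0.55 ± 0.09 (limma adjusted p = 0.000562), to 15831 ± 302 in P5KO and 16020 ± 203 in P5WT, against 10633 ± 726 in P0KO and 11150.1 ± 1943 in P0WT (SD, n = 3 each). Slc12a5, which takes it out of neurons, had a difference of -0.26 ± 0.10 (adjusted p = 0.0703). Of the glycine receptor subunits, 4 of 5 were tested. Glra2, the fetal alpha subunit, fell by 0.83 ± 0.11 (adjusted p = 8.19e-05), and Glrb, the beta subunit that binds gephyrin, rose by 0.35 ± 0.09 (adjusted p = 0.0116). Glra1, the adult alpha subunit, had a difference of 0.31 ± 0.19 (adjusted p = 0.232).

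Of 14 tested genes that anchor, assemble or carry GABA-A receptors, 2 were higher and 5 lower at P5 in the average. In that comparison 29.6% of the genes tested passed, 15.0% as lower. Rdx, which anchors alpha5 receptors to actin, rose by 0.53 ± 0.11 (limma adjusted p = 0.0023), and Gabarapl1, of the GABARAP family of trafficking proteins, rose by 0.27 ± 0.08 (adjusted p = 0.0197). Lhfpl4, which holds receptors at inhibitory synapses, fell by 0.67 ± 0.09 (adjusted p = 0.000183) and Hap1, an adaptor for receptor transport, by 0.56 ± 0.09 (adjusted p = 0.000382). Maged1 fell by 0.41 ± 0.10 (adjusted p = 0.00724), the auxiliary subunit Shisa7 by 0.44 ± 0.15 (adjusted p = 0.0373) and the motor adaptor Trak1 by 0.26 ± 0.08 (adjusted p = 0.0283). Gphn, which encodes the scaffold gephyrin, had a difference of -0.17 ± 0.08 (adjusted p = 0.130).

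Of 12 other GABA-A and GABA-rho subunit entries, 8 were read and 3 tested, and 0 passed in any of the 7 comparisons (limma). Gabrb2, a beta subunit, had an average age difference of 0.35 ± 0.16 (limma adjusted p = 0.105), Gabrb1 of 0.13 ± 0.13 (adjusted p = 0.476) and Gabrp of 0.42 ± 0.25 (adjusted p = 0.218). Gabbr1, of the GABA-B receptor, had -0.14 ± 0.08 (adjusted p = 0.232). In knockout minus wild type, 0 of the 31 tested genes of these lists passed at P5, at P0 or in the average. The smallest unadjusted p at P0 was that of Slc6a13, 1.05 ± 0.23 (limma adjusted p = 0.285), and Gabrb2 had -0.51 ± 0.22 (adjusted p = 0.303).

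**Figure D5:**
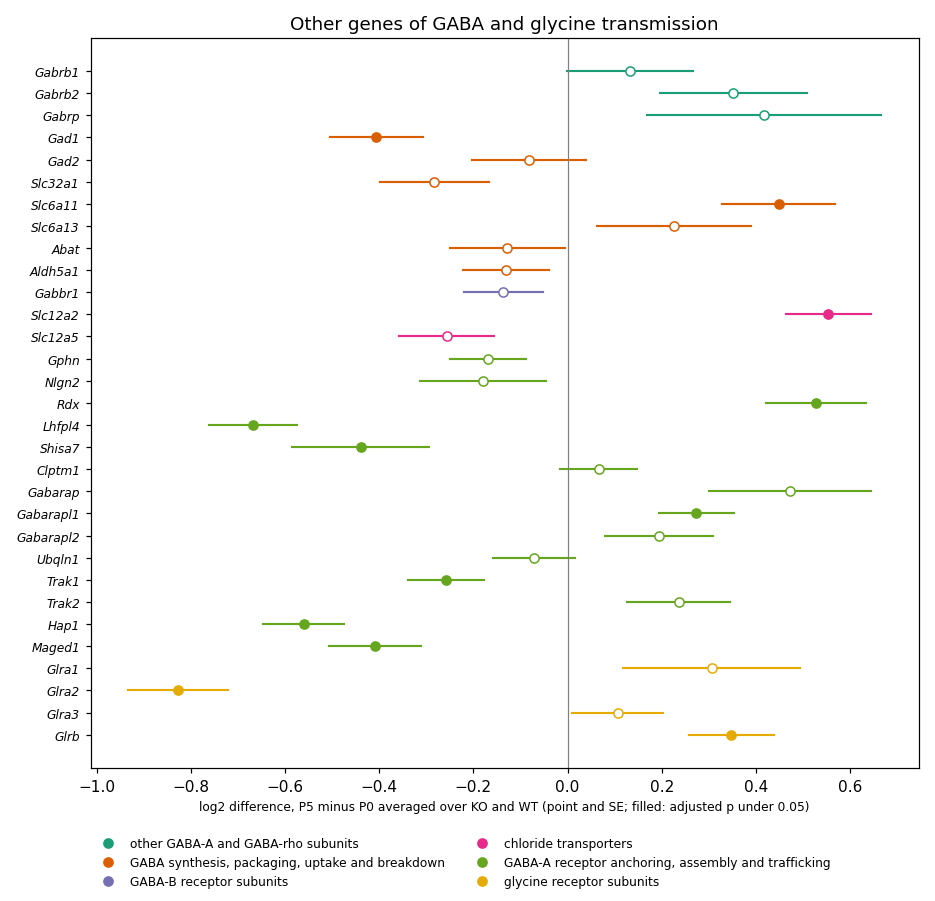
Log2 difference, P5 minus P0 averaged over genotypes, of 31 other genes of GABA and glycine transmission, with SE and filled points for an adjusted p under 0.05. Glra2, Lhfpl4 and Hap1 lie farthest to the left, Slc12a2 and Rdx farthest to the right, and the 3 other GABA-A subunits are open points.

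Across the 12 samples the members fell into patterns, given as description because the samples share ages and genotypes. Gabra5 and Gabrg1 correlated at r = 0.82, Gabra3 and Gabra5 at 0.77 and Gabra3 and Gabrg1 at 0.74. Gabra4 ran opposite to these, at -0.71 with Gabra3, -0.74 with Gabra5 and -0.76 with Gabrg1. Gabra2 stood apart, with values of -0.33 to 0.39 against the other tested members. The genes whose levels were most like Gabra3 were Hsdl1, Vopp1 and Lrp3 (r = 0.99, 0.98 and 0.98), and those most like Gabra5 were Neto1, Ablim3 and Tarsl2 (0.92 each). For Gabra4 they were Tspan15, Ccl6 and Suv39h2 (0.96, 0.95 and 0.95), and for Gabrg1 Trpm3, Dennd4b and Srrm4 (0.94, 0.93 and 0.92). For Gabra2 they were Adamtsl1, Dhx36 and Uri1 (0.92, 0.91 and 0.88), and for Gabrg3 Eml6, Lingo2 and Slc4a8 (0.90, 0.88 and 0.88).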

How the data were processed

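The authors deposited 1 linear intensity per probe set for each of 12 samples. The sources used here do not give the software that made it. The mean of an array after trimming 2% of probe sets at either end was 2500.01 throughout. Of 45101 probe sets, 64 controls were left out. The platform annotation gave 34945 of the others a single symbol, 932 several and 9160 none, and 34741 were found in the RefSeq table of GRCm38.p6 with 0 symbols changed.

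Signals were transformed as log2(signal + 16), which understates changes of dim genes. Array medians spread over 0.27, more than the limit of 0.1, so arrays were quantile-normalised. Genes were tested where their brightest probe set had a mean at or above the 40th percentile (12600 of 18193 genes). A mean per group was fitted with limma 3.58.1 in R 4.3.3 (8 residual degrees of freedom, intensity-dependent prior) and p-values were adjusted by Benjamini-Hochberg over all genes. Single probe sets came from the same fit with no filter, with a two-sided exact permutation test. Groups were called not overlapping on normalised values, in averages within both strata. The number of arrays limits the precision. The script was tested on simulated data.

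Members, gene lists and tests were chosen with earlier results of these data known. The genes named are all members, Grin3b, every gene of the transmission lists called in a comparison and otherwise up to 4 with the smallest p, the 3 genes most correlated with each tested member, and the 3 brightest genes of each marker list. Others named are markers below the filter and genes given because of their neighbourhood. Same-numbered knockout and wild-type samples did not deviate together in all pairs (r = 0.41, 0.38 and 0.03 at P0, -0.11, -0.13 and -0.13 at P5). Differently numbered samples gave -0.42 to 0.13 at P0, below the values of numbers 1 and 2, and 0.03 to 0.09 at P5. The numbers were not taken as pairs in the main fit. Alternatives were the deposited scaling, a pseudocount of 64, no filter, a replicate block, only the groups compared, array weights, other probe sets and leaving out each sample. Leaving out both P0WT samples 1 and 2 and the actin ratio as a covariate were added after the data were seen. Leaving out both of these samples leaves 1 sample in P0WT, with no spread of its own.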

Additional observations from a re-analysis of the deposited data

How the results depend on the processing

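Each difference of a member was recomputed under 19 or 20 other settings and with the gene's other probe sets, 959 and 77 values. Of the first, 872 kept direction and side of the threshold, 44 no longer passed, 16 passed newly and 27 changed sign. Of the second, 43, 7, 1 and 26 did so. The cause was not tested.

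The number of members passing was 1 at P0 with array weights, where 24.5% of genes passed, and 0 otherwise. In P5 minus P0 it was 2 in knockout with array weights and 0 with the actin covariate. In wild type it was 5 with array weights and 1 with only the groups compared. The number of all genes passing moved the same way in these fits, as counted in the next paragraph, so these counts are not particular to the members. Counts without both P0WT samples 1 and 2 are not given, since 1 sample is then left in P0WT. In the average, 2 members passed with the actin covariate, Gabra3 and Gabrg3. Of these, Gabrg3 passed newly, and the calls of Gabra4, Gabra5 and Gabrg1 were lost. In the interaction 1 member passed with array weights, where 12.1% of genes passed. Leaving out 1 sample gave 0 to 1 in knockout, 0 to 4 in wild type and 3 to 4 in the average.

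The number of genes passing at P0 was 3 and became 9 with the replicate block, 0 with only the groups compared, 3083 with array weights, 571 without both P0WT samples and 1 with the actin covariate. At P5 it was 1 and became 6 with only the groups compared and 6 with array weights. In the average over ages it was 3 and became 5 with the block, 2042 with array weights and 48 without both P0WT samples. In P5 minus P0 within knockout it was 1317 and became 2101 with array weights, 2160 without both P0WT samples and 851 with the actin covariate. Within wild type it was 2438 and became 1315 with only the groups compared and 6005 with array weights. In the average over genotypes it was 3724 and became 5799 with array weights and 2309 with the actin covariate, and the interaction rose to 1527 with array weights. Leaving out 1 sample gave 1 to 2691 at P0 (2691 without P0WT sample 2), 0 to 3 at P5, 1 to 742 in the average over ages, 652 to 1956 within knockout, 1203 to 4825 within wild type and 0 to 210 in the interaction.

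Leaving out 1 sample moved knockout minus wild type at P0 between -0.16 and 0.076 for Gabra3. At P5 it moved between -0.10 and 0.056 for Gabra4, -0.15 and 0.016 for Gabra5 and -0.15 and 0.063 for Gabrg3, and in the average between -0.056 and 0.060 for Gabra3 and -0.017 and 0.063 for Gabra4. P5 minus P0 in knockout moved between -0.15 and 0.078 for Gabrg3, and the interaction between -0.032 and 0.20 for Gabra3, -0.88 and 0.26 for Gabra6 and -0.030 and 0.16 for Gabrg1. The average genotype difference of Gabra3 was -0.068 with array weights and -0.079 without both P0WT samples. The knockout age difference of Gabrg3 was 0.014 with the deposited scaling, the average age difference of Gabra2 was -0.019 with the actin covariate, and without both P0WT samples the interaction was 0.058 for Gabra6 and -0.013 for Gabrg1.

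With other probe sets, knockout minus wild type at P0 was -0.45 for Gabra4 and -0.17 for Gabra6. At P5 it was -1.30, -0.045 and -0.80 for Gabra2, -0.084 for Gabra3, -0.34 for Gabra6, 0.14 for Gabrg1 and 0.14 for Gabrg3. Averaged over ages it was -0.27 for Gabra3, -0.24 for Gabra4, -0.26 for Gabra6 and 0.033 for Gabrg1. P5 minus P0 in knockout was -0.57 and -0.28 for Gabra2 and 0.23 for Gabrg3, in wild type 0.31, 0.081, 0.14 and 0.088 for Gabra2, and in the average -0.13 and -0.073 for Gabra2. The interaction was -0.88 and -0.42 for Gabra2, 0.43 for Gabra4 and -1.51 for Gabrg3. The block moved no member across the threshold except the average age difference of Gabra4 (adjusted p = 0.0509, limma).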
